A study of Mus musculus with 24 samples.

Results

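Sox genes encode transcription factors with an HMG box, and 10 of them other than Sox10 were followed here through mouse myoblasts and satellite cells that had lost Chd4. They are Sox4, Sox11 and Sox12 (the SoxC group), Sox5, Sox6 and Sox13 (SoxD), Sox8 and Sox9 (SoxE), Sox18 (SoxF) and Sox15 (SoxG), picked by gene symbol out of 46078 genes. Chd4 encodes the ATPase of the NuRD chromatin remodelling complex. The RNA-seq data held 16 libraries in 4 groups of 4. In AdCRE cultures, proliferating primary myoblasts derived from satellite cells of resting muscle, with Chd4fl/fl alleles, had received an adenovirus coding for Cre 72 hours earlier. AdGFP cultures were the same kind of Chd4fl/fl myoblasts with a GFP virus. Chd4dPax7ER satellite cells were isolated from muscle 3 days after it had been injured with cardiotoxin, and Chd4fl/fl satellite cells were their control. All mice were C57BL/6 and 2 to 4 months old. The sort took cells without SCA1 and CD45 and with alpha7-integrin and CD34. In the cultures, Chd4 loss and the presence of Cre cannot be told apart. The label Chd4dPax7ER names the Cre allele no further, and the sources used here do not say whether control mice had a Cre allele or its activating treatment. Nor do they say whether replicates were separate animals or cultures, so every p-value reflects the spread among libraries, which may be technical. A further 8 ATAC-seq samples were not analysed here.

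SOX proteins bind the minor groove of DNA through the HMG box and bend it, usually with a partner factor that decides where they act. SoxC proteins activate genes in progenitors of many tissues, SoxD proteins lack an activation domain of their own and often act beside SoxE proteins, and SoxE proteins are best known from cartilage, testis, glia and neural crest. In mouse skeletal muscle, Sox6 represses slow fibre genes, Sox8 has been described in satellite cells and as a brake on myoblast differentiation, and Sox15 is needed for normal regeneration.

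Only Sox8 and Sox11 passed the test in sorted satellite cells, in opposite directions, so the start regions of these 2 genes are shown. The sequences come from RefSeq on GRCm38.p6 and run 5′ to 3′ on the minus strand, on which both genes lie. Capitals mark every match to CANNTG, the general E-box core, and whether any factor binds these sites was not tested. Sox8 is at chr17:25570637-25570936 and Sox11 at chr12:27342669-27342968, each window running from upstream of the gene's first base into its first exon.
Sox8: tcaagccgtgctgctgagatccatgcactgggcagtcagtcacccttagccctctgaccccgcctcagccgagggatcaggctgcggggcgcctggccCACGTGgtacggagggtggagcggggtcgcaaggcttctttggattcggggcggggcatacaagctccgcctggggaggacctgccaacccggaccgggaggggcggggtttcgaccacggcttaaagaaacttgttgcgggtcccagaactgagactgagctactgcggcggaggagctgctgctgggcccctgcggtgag
Sox11: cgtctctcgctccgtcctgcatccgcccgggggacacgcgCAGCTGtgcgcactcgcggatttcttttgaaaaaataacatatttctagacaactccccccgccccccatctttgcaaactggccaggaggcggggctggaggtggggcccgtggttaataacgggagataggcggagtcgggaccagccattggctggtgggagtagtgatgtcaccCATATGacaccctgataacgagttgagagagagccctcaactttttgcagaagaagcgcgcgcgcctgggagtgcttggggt
The Sox8 window held 1 match, CACGTG at base 99 of the window, and the Sox11 window held 2, at bases 41 and 219. The noncoding gene Cerox1 starts inside the Sox8 window, at chr17:25570811 on the plus strand, and the CACGTG match lies within it. A CANNTG match was found in 72.3% and CACGTG, which is a case of CANNTG, in 7.15% of all 32851 promoters in the table. The SOX core ACAAT, searched on both strands, was in neither window and in 31.0% of all promoters. Both windows held 21 CpG dinucleotides, against a median of 7, and their GC shares were 66.3% for Sox8 and 58.7% for Sox11, against a median of 52.7%. Of the 10 Sox genes, 8 had a promoter entry.

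Levels were deposited as RPKM, reads divided by gene length and by the reads of the library, which allows genes to be set side by side. A gene was tested if it reached 0.5 RPKM in at least 4 of the 8 libraries of a table. Sox4, Sox6, Sox8, Sox9, Sox11 and Sox12 did so in both tables, and Sox5, Sox13, Sox15 and Sox18 in neither. Log2 fold changes below are limma estimates on log2(RPKM + 0.5), which understates changes of low genes, and a gene passed at a Benjamini-Hochberg adjusted p under 0.05 over all tested genes. In bulk RNA, fewer cells of a type and less RNA per cell cannot be told apart. Chd4 averaged 20.8 ± 3.49 RPKM in AdCRE and 75.1 ± 7.75 in AdGFP cultures, and 56.7 ± 8.37 in Chd4dPax7ER and 126.4 ± 6.77 in Chd4fl/fl cells (SD, n = 4 each, limma adjusted p = 0.00374 and 0.000152). Myogenic genes were plentiful in all groups, with Myog at 539.7 and 405.1 RPKM in AdCRE and AdGFP cultures and at 571.5 and 291.7 RPKM in Chd4dPax7ER and Chd4fl/fl cells. Library sums lay between 286802 and 326812 RPKM, and mitochondrial genes held 2.90 to 6.56% of them in vitro and 9.17 to 12.5% in vivo.

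In satellite cells after injury, Sox8 rose 2.30-fold and Sox11 fell to 0.483 times its reference level, while Sox4, Sox6, Sox9 and Sox12 did not pass the test. Thus 2 of the 6 tested Sox genes passed, 1 in each direction, beside 26.6% of all 13344 genes tested in vivo, of which 14.7% were higher and 11.9% lower. The 2 genes that passed belong to different groups, Sox8 to SoxE and Sox11 to SoxC. A pair of genes out of 6 is near that background and says nothing particular about the family.

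Sox8, the SoxE gene described in satellite cells, had 10.4, 11.5, 14.3 and 13.7 RPKM in Chd4dPax7ER replicates 1 to 4, against 6.78, 5.23, 5.29 and 4.42 RPKM in Chd4fl/fl replicates. Every Chd4dPax7ER library lay above every Chd4fl/fl library. Such separation in either direction was seen for 30.3% of tested genes. Sox8 averaged 12.5 ± 1.82 RPKM in Chd4dPax7ER and 5.43 ± 0.984 RPKM in Chd4fl/fl cells (n = 4 each), a log2 fold change of 1.13 (SE 0.15, limma adjusted p = 0.000893).

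Sox11, an activator of progenitor and neuronal genes in the SoxC group, had 13.7, 12.9, 10.8 and 8.02 RPKM in Chd4dPax7ER replicates, against 24.7, 24.2, 21.8 and 23.4 RPKM in Chd4fl/fl replicates. Here all Chd4dPax7ER libraries were the low ones, again with no overlap. Means were 11.4 ± 2.54 RPKM in Chd4dPax7ER and 23.5 ± 1.28 RPKM in Chd4fl/fl cells, a log2 fold change of -1.04 (SE 0.15, limma adjusted p = 0.00149). The spread among libraries was 22.3% of the mean in Chd4dPax7ER and 5.46% in Chd4fl/fl cells.

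Neither of the other SoxC genes passed. Sox4, the most abundant Sox gene in every group, had 37.1, 29.9, 35.6 and 33.9 RPKM in Chd4dPax7ER and 26.6, 34.0, 36.6 and 41.2 RPKM in Chd4fl/fl cells. Its groups overlapped and its log2 fold change was -0.01 (SE 0.13, limma adjusted p = 0.976). Sox12, a weaker activator of the same group, had 3.63, 2.50, 3.61 and 3.40 RPKM in Chd4dPax7ER, against 5.32, 3.94, 3.37 and 3.20 RPKM in Chd4fl/fl cells, and gave a log2 fold change of -0.22 (SE 0.18, limma adjusted p = 0.395). Whether these fold changes differ from that of Sox11 was not tested.

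Sox9, the master regulator of cartilage, had 18.9, 16.7, 24.1 and 14.9 RPKM in Chd4dPax7ER and 12.5, 17.7, 15.8 and 17.8 RPKM in Chd4fl/fl cells. The groups overlapped, with a log2 fold change of 0.21 (SE 0.16, limma adjusted p = 0.368). Sox6, the SoxD repressor of slow fibre genes, had 2.27, 5.17, 3.26 and 1.79 RPKM in Chd4dPax7ER, against 2.10, 2.31, 2.20 and 2.52 RPKM in Chd4fl/fl cells. Chd4dPax7ER replicates 2 and 3 lay above all Chd4fl/fl libraries and replicate 4 lay below them, and the gene did not pass (0.30, SE 0.26, limma adjusted p = 0.439).

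Of the 4 genes under the filter, 3 stayed under 0.5 RPKM in every library in vivo and Sox13 did not. Sox13, a SoxD gene, ranged from 0.17 to 1.18 RPKM in Chd4dPax7ER and from 0.14 to 0.43 RPKM in Chd4fl/fl cells, with replicates 2 and 3 the high ones in Chd4dPax7ER. Sox5, a partner of Sox6 and Sox9 in cartilage, ranged from 0.22 to 0.49 RPKM in Chd4dPax7ER and from 0.11 to 0.36 RPKM in Chd4fl/fl cells. Sox15 was listed at 0 in all Chd4dPax7ER libraries and had 0.34 RPKM in 1 Chd4fl/fl library. Sox18, a gene of blood and lymph vessel endothelium, had 0.18 RPKM in 1 Chd4dPax7ER library and was listed at 0 in all Chd4fl/fl libraries.

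**Figure D1:**
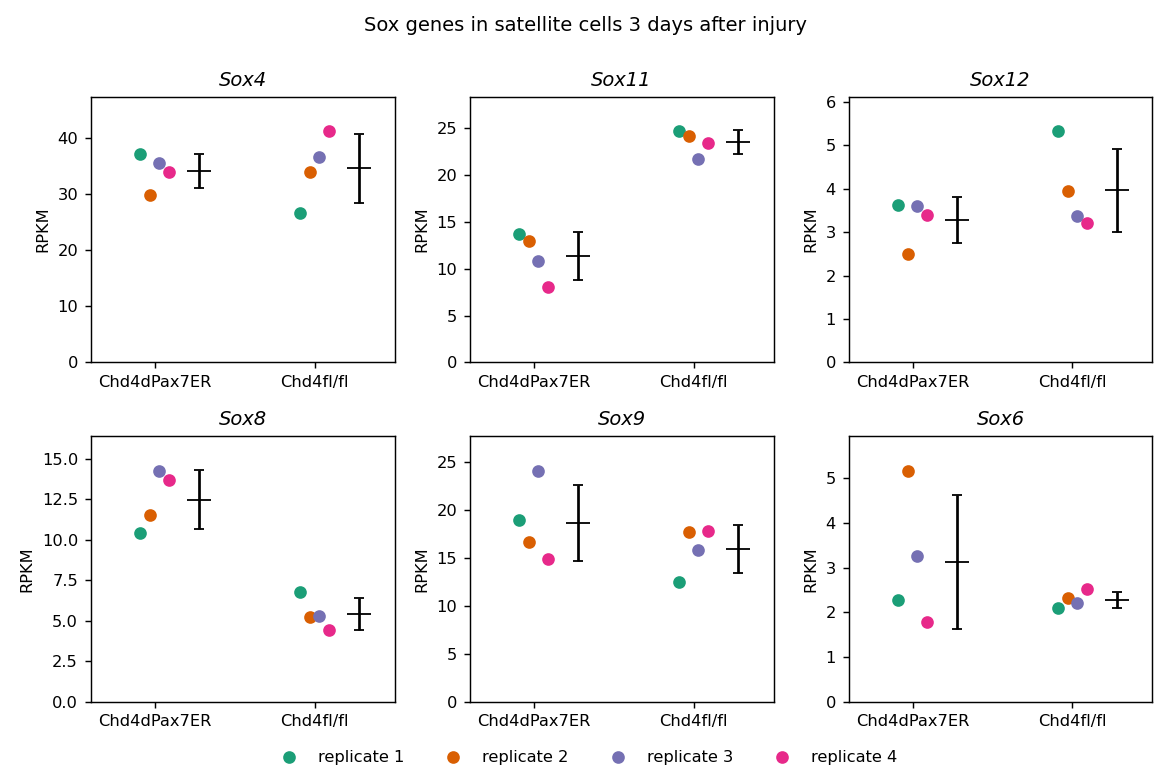
Level in RPKM (vertical axes from 0) of the 6 tested Sox genes in each Chd4dPax7ER and Chd4fl/fl library, with the mean and SD beside the points. Chd4dPax7ER libraries of Sox8 lie at 10.4 RPKM or more, above every Chd4fl/fl library, and those of Sox11 at 13.7 RPKM or less, below every Chd4fl/fl library.

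The order of levels differed between the genotypes below Sox4, which led both. In Chd4dPax7ER cells it ran Sox4, Sox9, Sox8, Sox11, Sox12 and Sox6, and in Chd4fl/fl cells Sox4, Sox11, Sox9, Sox8, Sox12 and Sox6. The ranges of Sox8 and Sox11, and those of Sox12 and Sox6, overlapped in Chd4dPax7ER cells, and so did those of Sox8 and Sox12 in Chd4fl/fl cells. All other neighbours among these 6 were apart.

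The summed level of all 20 Sox genes in the table was similar, at 89.2 ± 7.50 RPKM in Chd4dPax7ER and 87.0 ± 5.81 RPKM in Chd4fl/fl cells. SoxC genes made up 50.9 to 59.9% of that sum in Chd4dPax7ER and 70.5 to 72.3% in Chd4fl/fl libraries. Sox8 and Sox9 together made up 32.2 to 39.0% in Chd4dPax7ER and 23.7 to 26.0% in Chd4fl/fl libraries. Sox11 alone held 12.7% in Chd4dPax7ER and 27.1% in Chd4fl/fl cells on average, and Sox8 held 14.1% in Chd4dPax7ER and 6.32% in Chd4fl/fl cells. Shares of 1 sum depend on each other, and they were not tested.

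**Figure D2:**
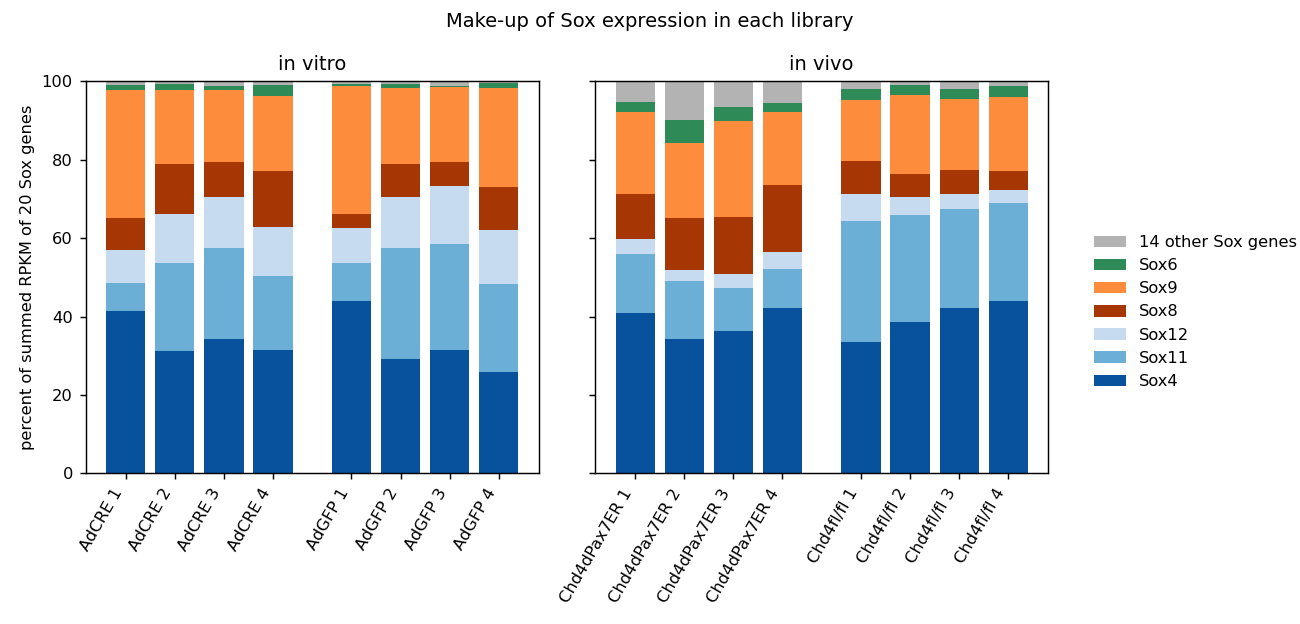
Share of each tested Sox gene in the summed RPKM of 20 Sox genes (vertical axis, percent) in each library, by culture group and genotype. The blue SoxC share is 50.9 to 59.9% in Chd4dPax7ER and 70.5 to 72.3% in Chd4fl/fl libraries.

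The 10 Sox genes held 94.1% of the sum in Chd4dPax7ER and 99.1% in Chd4fl/fl cells, and most of the remainder in Chd4dPax7ER cells was Sox10, the SoxE gene of glia and neural crest. In Chd4fl/fl cells Sox10 averaged 0.175 RPKM and Sox2, a gene of stem and neural cells, 0.463 RPKM. Sox10 had 3.31, 4.33, 2.16 and 2.73 RPKM in Chd4dPax7ER, against 0.23, 0, 0.31 and 0.16 RPKM in Chd4fl/fl cells (2.42, SE 0.24, limma adjusted p = 0.000271). It thus lay below Sox8 and Sox9 in every library. Sox10 reached 0.5 RPKM only in Chd4dPax7ER libraries, so it entered the test through the group where it was high. Its log2 fold change ran from 1.79 to 3.69 over the other settings. Of the other Sox genes outside the 10, only Sox2 was tested as well, and it did not pass (0.81, limma adjusted p = 0.129).

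In proliferating myoblasts no Sox gene passed the test that ignores the pairing of cultures, while Sox6 and Sox8 rose and Sox11 fell slightly once the pairing was taken into account. The limma test without the pairing called 0 of the 6 Sox genes, beside 0.656% of all 13567 genes tested in vitro, and 1 of the 6, Sox6, had an unadjusted p under 0.05. Same-numbered AdCRE and AdGFP cultures deviated together across the transcriptome, so the replicate number pairs them. With it as a block, 3 of the 6 Sox genes passed, beside 36.2% of all tested genes. Of them, 2 were higher and 1 was lower, beside 17.5% higher and 18.7% lower over all tested genes. With 6 genes, these counts are close to the background. None of the 6 had groups that were apart in vitro, which 10.0% of tested genes had.

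Sox8 had 5.15, 7.24, 5.09 and 9.45 RPKM in AdCRE replicates 1 to 4, against 2.17, 4.36, 3.39 and 6.87 RPKM in AdGFP replicates. It was higher in the AdCRE culture of all 4 pairs, by 1.38 to 2.38 times, although the groups overlapped. The log2 fold change was 0.68 (SE 0.32, limma adjusted p = 0.358), and with the replicate block SE was 0.11 and adjusted p 0.00333.

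Sox6 had 0.934, 0.836, 0.624 and 1.85 RPKM in AdCRE, against 0.410, 0.501, 0.275 and 0.818 RPKM in AdGFP replicates. Its level was low, and the AdCRE culture was the higher one in all 4 pairs, by 1.67 to 2.28 times. The log2 fold change was 0.61 (limma adjusted p = 0.305, and 0.00504 with the replicate block).

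Sox11 had 4.44, 12.8, 13.4 and 12.5 RPKM in AdCRE, against 5.87, 14.4, 15.1 and 14.0 RPKM in AdGFP replicates. Replicate 1 was the low culture of both groups, and AdCRE was the lower one in all 4 pairs, at 0.756 to 0.897 times AdGFP. The log2 fold change was -0.21 (SE 0.41, limma adjusted p = 0.860, and 0.0191 with the replicate block). Without the pair of replicate 1 the blocked change was -0.16 (adjusted p = 0.0508).

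Sox4 had 26.0, 18.0, 19.7 and 21.0 RPKM in AdCRE, against 27.2, 14.7, 17.5 and 16.3 RPKM in AdGFP replicates. It was higher in AdCRE in 3 of 4 pairs (0.18, limma adjusted p = 0.717, and 0.0798 with the block). Replicate 1 was the exception, and without that pair Sox4 passed the blocked test (0.27, adjusted p = 0.0161). Sox9, at 20.4, 10.9, 10.6 and 12.7 RPKM in AdCRE and 20.2, 9.82, 10.6 and 15.7 RPKM in AdGFP replicates, did not pass (-0.04, limma adjusted p = 0.973, and 0.739 with the block). Sox12 averaged 7.12 ± 1.27 RPKM in AdCRE and 7.25 ± 1.47 RPKM in AdGFP cultures and did not pass (-0.02, limma adjusted p = 0.978, and 0.825 with the block). Replicate 1 thus had the highest Sox4 and Sox9 and the lowest Sox11 and Sox12 of both groups.

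**Figure D3:**
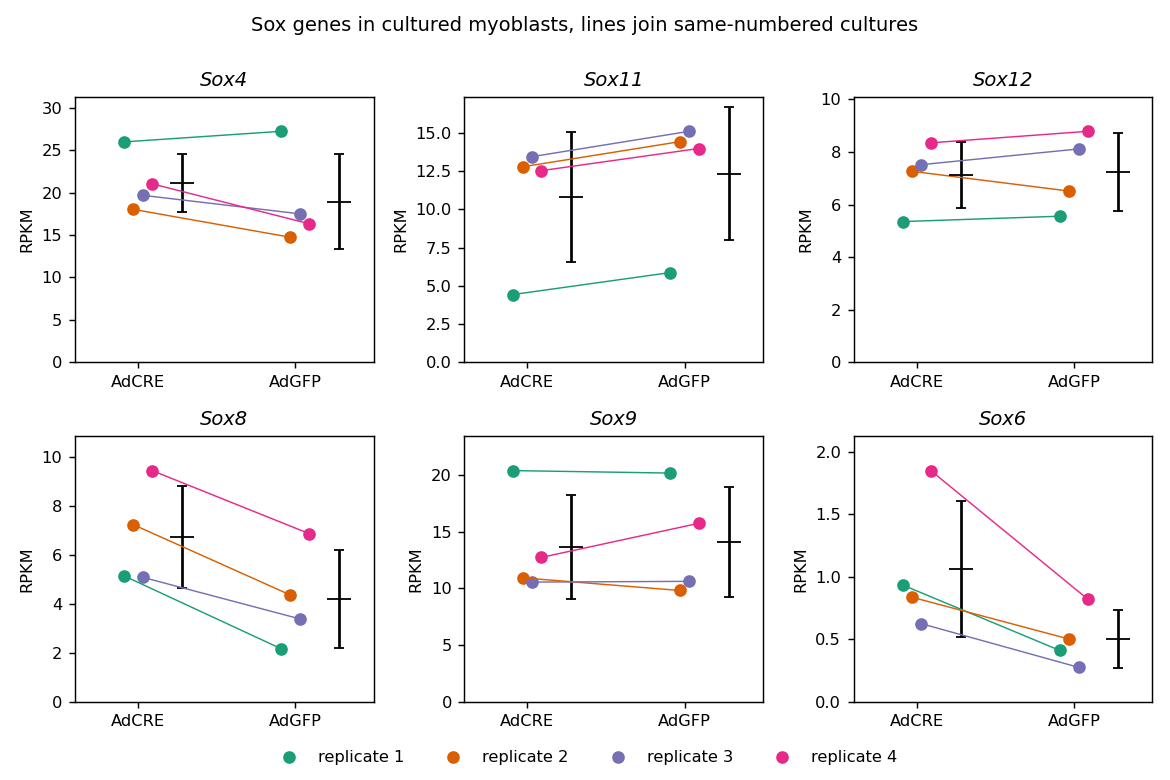
Level in RPKM (vertical axes from 0) of the 6 tested Sox genes in each AdCRE and AdGFP culture, with lines between same-numbered cultures and the mean and SD beside the points. Sox8 and Sox6 are higher and Sox11 is lower in the AdCRE culture of all 4 pairs.

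Sox13 averaged 0.240 ± 0.0152 RPKM in AdCRE and 0.243 ± 0.0388 RPKM in AdGFP cultures, and Sox15 averaged 0.148 ± 0.102 RPKM in AdCRE and 0.0720 ± 0.108 RPKM in AdGFP cultures. Sox5 and Sox18 averaged under those levels in both groups. The order of levels in both culture groups was Sox4, Sox9, Sox11, Sox12, Sox8 and Sox6. Among these 6, only Sox8 and Sox6 were neighbours with ranges apart. The 10 Sox genes held 99.8% of the Sox sum in AdCRE and 99.9% in AdGFP cultures, and none of the other Sox genes reached the filter.

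The fold changes of the 6 Sox genes were compared between satellite cells and cultures by testing their difference. None passed, beside 4.39% of the 11941 genes tested in both tables, and none of the 6 had an unadjusted p under 0.05 in that limma-based test. The Sox11 difference, in vivo minus in vitro, was -0.83 (SE 0.44, adjusted p = 0.343). With the replicate block in vitro its SE was 0.16 and its adjusted p 0.00594, the only Sox gene to pass, beside 14.6% of genes. The Sox8 difference was 0.46 (adjusted p = 0.538, and 0.104 with the block in vitro).

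**Figure D4:**
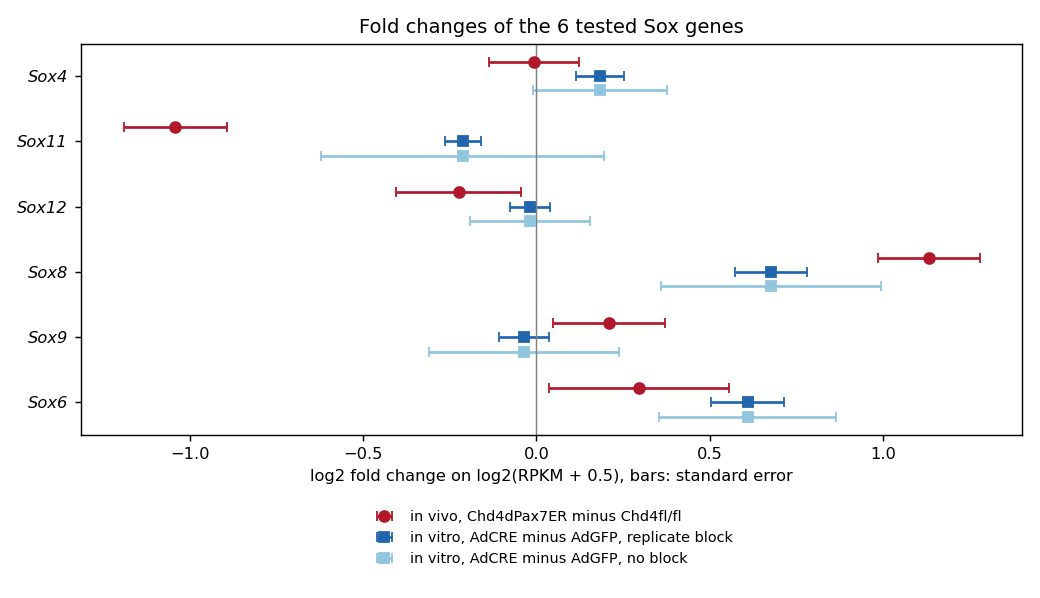
Log2 fold change on log2(RPKM + 0.5) (horizontal axis) with its standard error for the 6 tested Sox genes, in Chd4dPax7ER minus Chd4fl/fl satellite cells and in AdCRE minus AdGFP cultures with and without the replicate block. Sox8 is at 1.13 in vivo and 0.68 in vitro, and Sox11 at -1.04 in vivo and -0.21 in vitro.

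Genes tied to the Sox factors were counted in each comparison, each count being of tested genes. Over all genes tested in vivo, 14.7% were higher and 11.9% lower. Over all genes tested in vitro, 0.656% were called without the block, and 17.5% were higher and 18.7% lower with it. No list was tested against these shares. Of 2 SoxC target genes, Tubb3, a neuronal tubulin, rose and Tead2, a TEAD factor of Hippo signalling, fell in Chd4dPax7ER cells. Tubb3 averaged 15.2 ± 3.76 RPKM in Chd4dPax7ER and 5.94 ± 2.25 RPKM in Chd4fl/fl cells (1.32, limma adjusted p = 0.00509), opposite in direction to Sox11. Tead2 averaged 8.74 ± 1.23 RPKM in Chd4dPax7ER and 15.1 ± 2.03 RPKM in Chd4fl/fl cells (-0.76, limma adjusted p = 0.00324). In vitro neither passed without the block (Tubb3 at 1.05, limma adjusted p = 0.134, and Tead2 at -0.26, limma adjusted p = 0.361), 1 of the 2 had an unadjusted p under 0.05, and both passed with it (0.0011 and 0.0154). The blocked Tead2 call held without the pair of replicate 2 or 4 and was lost without either other pair, with adjusted p up to 0.0598.

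Of 6 tested slow fibre genes, a class repressed by Sox6 in mouse muscle, 4 rose in Chd4dPax7ER cells and none fell. Their median log2 fold change was 1.47, against -0.02 over all tested genes. The listed slow fibre genes Myh7, Myh7b, Myl2 and Myl3 were under the filter in vivo. Myh7 averaged 0.318 RPKM in Chd4dPax7ER and 0.108 RPKM in Chd4fl/fl cells. Tnnt1, the slow troponin T, averaged 174.4 ± 49.4 RPKM in Chd4dPax7ER and 37.8 ± 12.5 RPKM in Chd4fl/fl cells (2.23, limma adjusted p = 0.000681). Fast fibre genes moved alike, with 11 of 12 higher and 1, Tpm1, lower, and a median of 1.36. With the replicate block in vivo, 3 slow fibre genes rose and none fell, and 10 fast fibre genes rose and 1 fell. Tnnc2, the fast troponin C, averaged 445.8 ± 113.8 RPKM in Chd4dPax7ER and 44.4 ± 15.8 RPKM in Chd4fl/fl cells (3.36, limma adjusted p = 0.000113). In vitro the limma test without the block called 0 of 9 slow and 0 of 12 fast fibre genes, of which 0 and 1 had an unadjusted p under 0.05. With the block 5 slow and 9 fast fibre genes rose and none fell.

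None of the 15 cartilage genes activated by Sox9, Sox5 and Sox6 reached the filter in satellite cells, and in cultures only Acan did (0.21, limma adjusted p = 0.827). Their summed level was 1.79 to 4.34 RPKM in Chd4dPax7ER and 0.59 to 1.99 RPKM in Chd4fl/fl libraries. Of 2 genes of Sox15 biology, Foxk1 did not pass in vivo and Fhl3, a LIM protein partner of SOX15, fell (-0.35, limma adjusted p = 0.0289). Fhl3 missed the threshold without Chd4dPax7ER replicate 3 or 4 or Chd4fl/fl replicate 2, 3 or 4, with adjusted p up to 0.0720, and with the replicate block, at 0.0742. Of 4 Wnt target genes, on which Sox proteins can act through beta-catenin, Lgr5 fell (-1.24, limma adjusted p = 0.00388) and Tcf7 rose (0.45, limma adjusted p = 0.0218). Lgr5 reached 0.5 RPKM only in Chd4fl/fl libraries, so it entered the test through the group where it was high. Without Chd4dPax7ER replicate 3 or Chd4fl/fl replicate 2, Tcf7 missed the threshold, with adjusted p up to 0.0548. In vitro none of the 2 Sox15 genes and none of the 3 Wnt targets passed the limma test without the block, and 0 and 1 of them had an unadjusted p under 0.05. With the block 1 Wnt target passed, Znrf3, which encodes a ubiquitin ligase that limits Wnt signalling (-0.23, limma adjusted p = 0.0219 with the block), lower in the AdCRE culture of all 4 pairs.

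Markers of other cell types moved beside Sox8, Sox11 and Sox10 in vivo. The counts stand beside 14.7% higher and 11.9% lower over all genes tested in vivo, and the lists are short. Of 8 markers of fibro-adipogenic progenitors, which a sort without SCA1 should leave out, 4 rose and none fell. Lum averaged 43.9 ± 13.2 RPKM in Chd4dPax7ER and 1.96 ± 0.318 RPKM in Chd4fl/fl cells (4.14, limma adjusted p = 1.02e-05). Dcn averaged 109 ± 32.7 RPKM in Chd4dPax7ER and 10.9 ± 1.81 RPKM in Chd4fl/fl cells (3.23, limma adjusted p = 2.67e-05). Both passed under every other setting and without any 1 library. Pdgfra and Ly6a, which encodes SCA1, were among the 4 that did not pass (0.40 and 0.77, limma adjusted p = 0.180 and 0.191). The summed level of the 8 markers was 282.8 to 456.8 RPKM in Chd4dPax7ER and 122.8 to 168.0 RPKM in Chd4fl/fl libraries. Of 7 Schwann cell and glial markers 3 rose and none fell. The list summed to 53.7 to 110.5 RPKM in Chd4dPax7ER and 49.1 to 57.9 RPKM in Chd4fl/fl libraries. Ngfr, its most abundant gene in Chd4fl/fl cells, averaged 19.3 ± 5.58 RPKM in Chd4dPax7ER and 26.6 ± 7.12 RPKM in Chd4fl/fl cells. It did not pass (-0.46, limma adjusted p = 0.174). Mbp was among the 3 that rose (2.79, limma adjusted p = 0.000198). Another of the 3, S100b, reached 0.5 RPKM only in Chd4dPax7ER libraries, so it entered the test through the group where it was high. Of the calls among fibro-adipogenic markers, Dpt missed the threshold without any 1 library other than Chd4dPax7ER replicate 1 (adjusted p up to 0.0927). Pericyte and smooth muscle markers rose in 3 of 7 cases, of which Rgs5 missed the threshold without Chd4dPax7ER replicate 2 or 3 or Chd4fl/fl replicate 1, 2 or 4 (adjusted p up to 0.114). Endothelial markers rose in 1 of 3 cases, tenocyte markers in 0 of 2 and leukocyte markers in 0 of 9. Neither tenocyte nor leukocyte markers had any unadjusted p under 0.05. Pecam1 and Kdr, defining markers of endothelium, averaged 0.463 and 0.163 RPKM in Chd4dPax7ER and 0.470 and 0.0925 RPKM in Chd4fl/fl cells, while Cldn5, a tight junction gene of endothelium, averaged 4.09 ± 1.55 RPKM in Chd4dPax7ER and 0.703 ± 0.455 RPKM in Chd4fl/fl cells (1.96, limma adjusted p = 0.00273). The summed level of all 10 endothelial markers was 9.66 to 15.5 RPKM in Chd4dPax7ER and 4.35 to 8.17 RPKM in Chd4fl/fl libraries, with no overlap. None of the 7 lists' markers was at 0 in every library.

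Of 10 satellite cell and myoblast markers, 5 rose, among them Myod1 (1.00) and Des (1.00), and 1, Pax7, fell (-0.85, limma adjusted p = 0.0301). Pax7 missed the threshold without Chd4dPax7ER replicate 2 or 4 or Chd4fl/fl replicate 3 or 4, with adjusted p up to 0.0733. In vitro 0 of these 10 passed without the block and 1 had an unadjusted p under 0.05, while 1 rose and 3 fell with it. Of the other cell type lists in vitro, the test without the block called only Ly6a, which encodes SCA1, and Rgs5 of pericytes, both higher in AdCRE. Ly6a missed the threshold without AdCRE replicate 2 or AdGFP replicate 3, and Rgs5 without any of 7 of the 8 libraries (adjusted p up to 0.124). With the block, 3 rose and 1 fell among 4 tested markers of fibro-adipogenic progenitors. In the same fit 3 of 5 pericyte, 2 of 3 endothelial, 2 of 3 Schwann cell, 0 of 2 tenocyte and 1 of 2 leukocyte markers rose. Over all genes tested in vitro, 17.5% were higher and 18.7% lower with the block, and these lists are short. The part of these markers in the Sox results was not tested.

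Genes whose levels followed each Sox gene most closely were ranked by the smaller of 2 Pearson correlations, 1 over the 8 libraries of each table, among 11941 genes. These correlations share libraries and hold the difference between groups. Sox11 came with Lrba (0.982), Gpr63 (0.951) and Tead1 (0.942), and Sox8 was followed closely by, among others, Tro (0.941) and Thbs3 (0.933). Sox9 came with Map3k6 (0.926), Smad7 (0.894) and Phlda1 (0.887), and Sox4 with Pcyt2 (0.875), Cdkn2b (0.839) and Gch1 (0.815). Sox12 came with Syne3 (0.876), Smc4 (0.870) and Cep70 (0.869), and Sox6 with Rapgefl1 (0.889), Hyal1 (0.877) and Yipf6 (0.805).

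The nearest neighbour of Sox8 did not pass in either setting. The noncoding gene Cerox1, named 2810468N07Rik in the tables, starts 125 bases upstream of Sox8 and is read away from it on the plus strand. It averaged 2.08 ± 1.08 RPKM in Chd4dPax7ER and 2.45 ± 0.780 RPKM in Chd4fl/fl cells (-0.31, limma adjusted p = 0.606). In cultures it averaged 1.75 ± 0.442 RPKM in AdCRE and 1.78 ± 0.371 RPKM in AdGFP (-0.02, limma adjusted p = 0.972). Sox15 overlaps the end of Mpdu1, and Sox4, Sox5 and Sox6 overlap noncoding genes. The sources used here do not say whether counting used strand, so reads in these overlaps cannot be assigned with certainty.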

How the data were processed

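The RPKM values were deposited by the authors in 2 tables of 8 libraries, those of sorted cells with 2 decimals. The submitters' processing notes name DESeq2 3.6, HISAT2 2.1.0, HOMER, cutadapt 1.18, MACS2 2.1.2, FastQC 0.11.8 and Picard 2.18.15, with no role, and give the builds as GRCm38 and mm10. The sources used here do not say which of these made the tables or how reads were counted. The files hold no counts, so depth per library is unknown and no counting interval is given.

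Groups were compared within each table with limma 3.58.1 (statmod 1.5.0, R 4.3.3) on log2(RPKM + 0.5), with variances that follow the mean level. Genes needed 0.5 RPKM in 4 of 8 libraries, and p-values were adjusted by Benjamini-Hochberg over all of them. Fold changes of both settings were compared with a test of their difference. The limma scripts were tested on simulated data. Deviations from group means correlated at 0.711 to 0.856 between same-numbered libraries in vitro, and at -0.0967 to 0.0499 in vivo, so the number pairs the cultures and not the sorted cells. Alternatives were the replicate block, 2 pseudocounts, 2 filters, TPM and quantile scaling, no variance trend and each library left out.

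The members and lists were chosen with earlier results of these data known. All 10 Sox genes are named. Of each list, at most the 3 called genes with the largest change are named, and of a list with no call at most the 2 most abundant. Pax7, Tpm1, Kdr, Pecam1, Foxk1 and Znrf3 are exceptions, named after their values were seen. So are Pdgfra, Ly6a, Ngfr, Myh7, Myh7b, Myl2 and Myl3 in vivo. For each tested Sox gene the 3 genes most like it were ranked, of which 1 is not reported here.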

Additional observations from a re-analysis of the deposited data

Results flagged for a closer look

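In 4 of 44 groups, 1 library stood far from the other 3. The 44 include Sox15 in Chd4dPax7ER and Sox18 in Chd4fl/fl cells, which were at 0 throughout and could not be flagged. For normally distributed values, chance alone gives such a flag in about 1 in 20 groups. Sox11 was lowest in AdCRE replicate 1, at 4.44 RPKM, and in AdGFP replicate 1, at 5.87 RPKM. The same pair of cultures was low in both groups, and its part in the blocked Sox11 result is given in the report. Sox18 had 0.18 RPKM in 1 Chd4dPax7ER library and was listed at 0 in the others, and Sox15 had 0.34 RPKM in 1 Chd4fl/fl library and was listed at 0 in the others. A lone value beside libraries at 0 is always flagged, so the rate of 1 in 20 does not apply to Sox18 and Sox15. The Sox11 fold change differed between the settings, in vivo minus in vitro, by -0.83, and this passed the test only with the replicate block in vitro.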

How the results depend on the processing

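Sox8 and Sox11 passed in vivo under all 7 other settings, the replicate block and each of 8 fits without 1 library (Sox8 1.05 to 1.24, Sox11 -1.14 to -0.89). In vitro, 0 Sox genes were called in every fit without the block, 3 with the block, and 3 in each blocked fit without 1 pair, with Sox4 in place of Sox11 without the pair of replicate 1. The count of genes called in vitro was 4907 with the block, against 89 without it. Without 1 library that count was 16 to 44, and without 1 pair in the blocked fit 3825, 3720, 3814 and 3157 (pairs 1 to 4). In vivo the counts were 2597 to 3182 without 1 library, against 3548. TPM scaling gave 1698 higher and 1960 lower genes in vivo and quantile scaling 1751 and 1949, against 1960 and 1588, and both Sox calls held. With the block, and with the block in vitro alone, 1 Sox gene differed between settings, against 0.

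In vivo, the calls of Dpt (no filter, no variance trend), Rgs5 (both scalings, no filter, no variance trend) and Pax7 (no filter) were also lost under other settings, with adjusted p up to 0.0768, 0.0877 and 0.0565 in that order. Values near 0 changed sign. Sox12 in vitro was 0.013 under quantile scaling. Without 1 library, in vitro values ran from -0.24 to 0.15 for Sox9, -0.52 to 0.15 for Sox11, -0.13 to 0.10 for Sox12 and -0.11 to 0.10 for 2810468N07Rik. In vivo values ran from -0.12 to 0.082 for Sox4 and -0.46 to 0.12 for 2810468N07Rik. In blocked fits without 1 pair, Sox9 ran from -0.10 to 0.052, Sox12 from -0.074 to 0.0092 and 2810468N07Rik from -0.18 to 0.20. The cause was not tested. The blocked fits without 1 pair were added after the data were seen.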
